A study of Mus musculus with 10 samples.

Results

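OTX2 peaks were described at 43 genes of the WNT signalling pathway in 2 states of mouse cells: epiblast stem cells (EpiSCs, a pluripotent culture resembling the postimplantation epiblast) and the definitive endoderm (DE, the embryonic layer that gives rise to gut and its organs) made from them. The members were picked by gene symbol: every Wnt gene, the frizzled genes without Fzd5 and Fzd8, Lrp5, Lrp6, Rspo1 to Rspo4, Lgr4 to Lgr6, Axin1, Axin2, Ctnnb1, Tcf7, Tcf7l1, Tcf7l2 and Lef1. They comprised 23 ligands, 13 receptors and 7 transducers, out of 21887 protein-coding genes with a position in the gene table. All 43 were in the table.

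WNT proteins are secreted, lipid-modified ligands that bind frizzled receptors (Fzd) together with the co-receptors LRP5 and LRP6. In the canonical branch this inactivates the complex, built on the scaffold AXIN, that otherwise marks β-catenin (Ctnnb1) for degradation, and β-catenin then acts in the nucleus through the DNA-binding factors TCF7, TCF7L1, TCF7L2 and LEF1. R-spondins (Rspo) bind the receptors LGR4 to LGR6 and amplify the signal by keeping frizzled receptors at the cell surface. In the embryo WNT signals are needed to form the primitive streak, from which endoderm arises, and anterior endoderm later forms where WNT is antagonised.

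Binding was mapped by CUT&RUN, in which a nuclease is brought to an antibody-bound protein and the DNA it releases is sequenced. The target was OTX2 carrying an HA epitope in the line 7H OTX2-dTAG-EGFP, on a BL6/129 hybrid background, with 500000 cells per sample and 2 HA samples per state. The EpiSC medium was N2B27 supplemented with FGF2 (12.5 ng/ml), Activin A (20 ng/ml) and NVP (175 nM). For DE the medium was CDM, holding 3 µM CHIR (the usual short name of a GSK3 inhibitor that activates WNT signalling) beside Activin A at 40 ng/ml in the first 16 h, and LDN at 100 nM beside Activin A at 100 ng/ml in the next 24 h. Live DE cells were sorted with DAPI. Both groups carry the tagged OTX2 and come from 1 line. Peak lists hold no expression values, so the labelled cell types could not be checked against markers. The authors pooled both HA samples of a state into 1 list of peaks, so no value below has a replicate spread and no difference between the states could be tested. Confidence intervals are 95% Wilson intervals and cover counting error only. Read depth is unknown. The DE list held 42711 peaks and the EpiSC list 6319, which is 6.76 times as many in DE, and a difference in depth cannot be told apart from a difference in binding. Control lists came from IgG in tagged EpiSCs (3 samples) and from anti-HA in untagged DE (1 sample): 35 DE and 50 EpiSC peaks overlapped them, and none of these was at a member gene.

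Peaks were named for genes as in the nearest-gene column of the authors' deposited table. In DE, 110 peaks were named for 34 of the 43 genes, and in EpiSCs 22 peaks were named for 16 of them. Of all protein-coding genes, 50.4% had a DE peak and 15.3% an EpiSC peak, so the 34 genes are 79.1% and the 16 genes 37.2% against these levels. All 16 genes with an EpiSC peak also had a DE peak, as did 3191 of the 3355 coding genes with an EpiSC peak. Of all coding genes, 14.6% had both. DE peaks only were named for 18 members (35.8% of coding genes), and no member had EpiSC peaks only (0.749%). The DE list held 5 peaks per EpiSC peak at the members, compared with 6.13 over all coding genes. More DE than EpiSC peaks were named for 30 members (44.4% of coding genes). At least 3 DE peaks were named for 15 members (14.3% of coding genes), and at least 5 for 7 of them (5.41%): Wnt5a, Wnt11, Rspo3, Lgr4, Lgr5, Lgr6 and Axin2.

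In the full lists the classes stood in a different order in the 2 states, as the bars of genes with a peak show. In DE, 18 of 23 ligands (78.3%), 9 of 13 receptors (69.2%) and 7 of 7 transducers had a peak. In EpiSCs, 4 of 23 ligands did (17.4%), compared with 8 of 13 receptors (61.5%) and 4 of 7 transducers (57.1%). Ligands were thus near the 15.3% of all coding genes in EpiSCs and above their 50.4% in DE, and 14 ligands had DE peaks only, compared with 1 receptor and 3 transducers. The full DE list was 6.76 times as long as the EpiSC list, however. Its 6319 widest peaks, as many as the EpiSC list held, named only Rspo2, Rspo3, Wnt11 and Wnt5a among the ligands. Ligands then had the fewest DE peaks per gene (0.261, with 0.692 for receptors and 0.714 for transducers), as they did in EpiSCs. The mean number of DE peaks per gene was 2.09 for ligands, 3 for receptors and 3.29 for transducers, compared with 1.17 over all coding genes. Without the LGR genes the receptors had 1.4, below the ligands, and without Wnt5a the ligands had 1.45. In EpiSCs the means were 0.348, 0.769 and 0.571, and 0.192 over all coding genes. These genes also have more surrounding space: the median territory (a gene together with 50% of each intergenic gap beside it) was 62.7 kb for ligands, 106.6 kb for receptors and 198.8 kb for transducers, against 46.4 kb over all coding genes. Per 100 kb of territory, DE peaks numbered 2.02, 2.59 and 1.56, compared with 0.942 over all coding genes. The count goes by name and so takes in peaks nearer to another coding gene, such as the 9 of Wnt5a inside Erc2. It leaves out 14 DE peaks inside transducers that were named for other genes. Wnt5a had 7.12 and the LGR genes 6.37, while the Fzd genes had 1.18 and the Lrp genes 1.52, below the transducers' 1.56. Members of 1 class are not replicates, and the differences between classes were not tested.

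**Figure D1:**
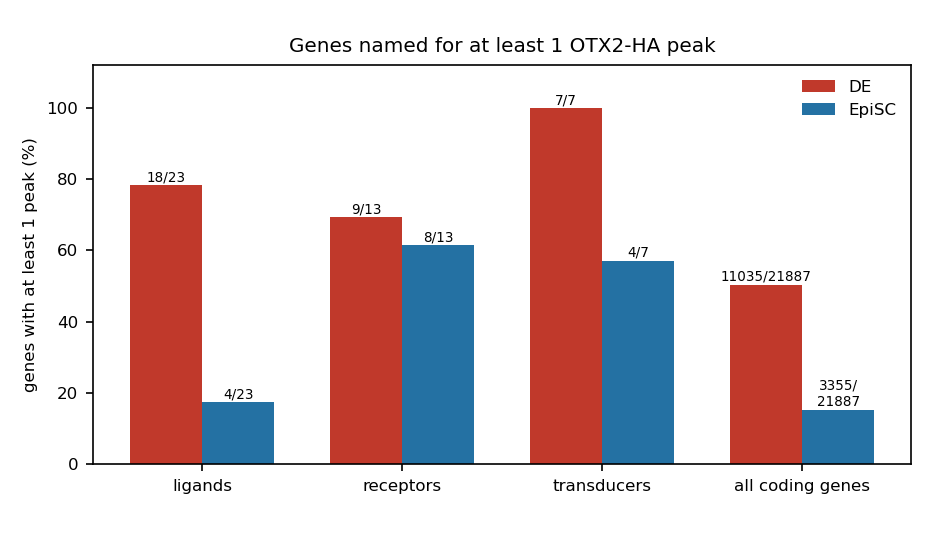
Share of genes named for at least 1 HA peak (y axis, percent) in ligands, receptors, transducers and all protein-coding genes, in DE (red) and EpiSCs (blue), with the gene counts above the bars. Ligands reach 18 of 23 genes in DE and 4 of 23 in EpiSCs, while 8 of 13 receptors have an EpiSC peak. The DE list holds 6.76 times as many peaks as the EpiSC list.

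**Figure D2:**
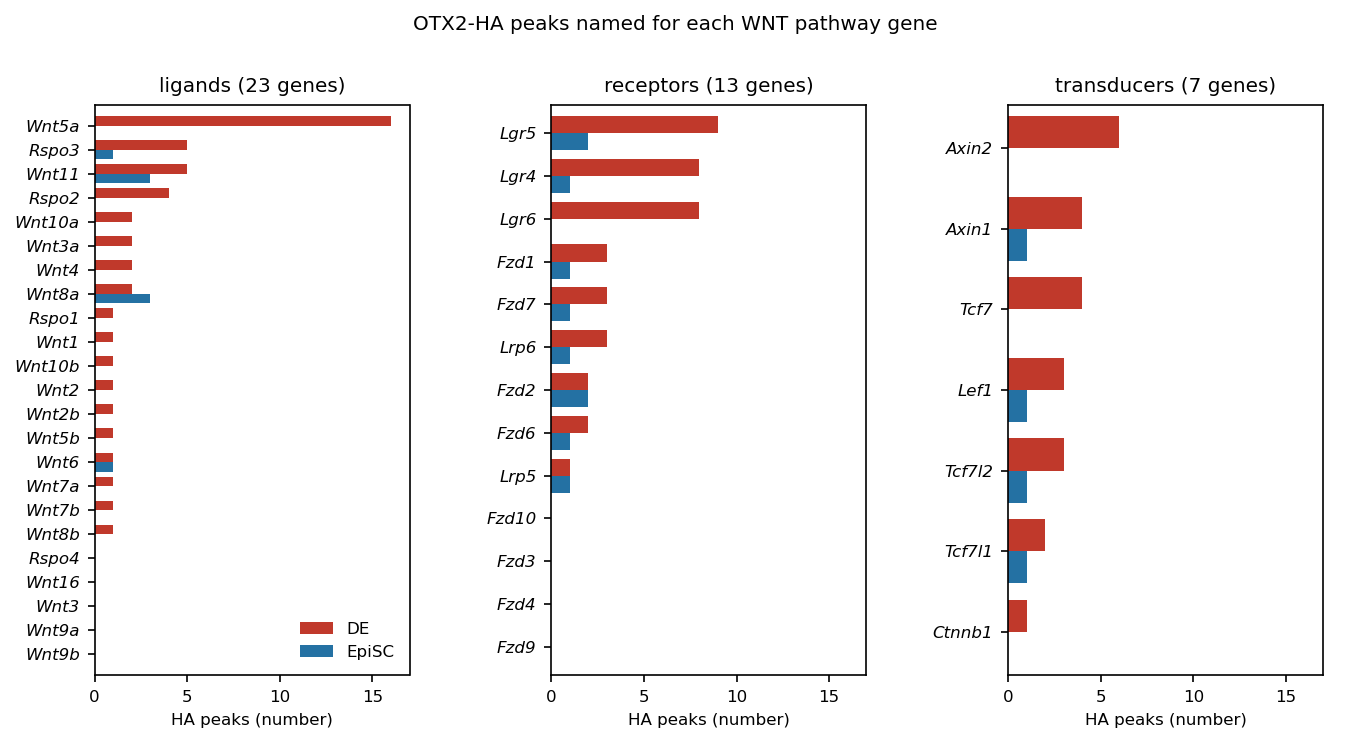
Number of HA peaks named for each of the 43 genes (x axis) in DE (red) and EpiSCs (blue), by class. Wnt5a has the highest DE count, 16, and Wnt8a is the member with more EpiSC than DE peaks.

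Among the ligands, Wnt5a, which acts mainly through non-canonical signalling, carried 16 DE peaks and no EpiSC peak. Of all coding genes 0.178% (39 genes) had as many DE peaks. Only 2 of the 16 lay inside the gene (chromosome 14, 28504543 to 28527448), at 28506744 to 28506867 and 28507650 to 28507722, and 2 more lay 1040 and 1955 bp beyond its higher end. The others were remote: 9 lay on the lower side, 61057 to 193838 bp away, and 3 on the higher side at 102269, 150543 and 207194 bp. The 9 on the lower side all fell inside the neighbouring gene Erc2, and the farthest on the higher side was closer to Cacna2d3, so their link to Wnt5a rests on the authors' naming. The widest of the 16 was 384 bp (28313781 to 28314164), among the remote ones. The nearest EpiSC peak to the gene was 427874 bp away.

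Wnt11, also a mainly non-canonical ligand, had 5 DE and 3 EpiSC peaks, and only 1 site was common to both states. That site, 2092.5 bp downstream of an annotated start on chromosome 7, measured 310 bp in DE (98840783 to 98841092) and 207 bp in EpiSCs (98840850 to 98841056). The other EpiSC peaks lay close to DE peaks without touching them. The EpiSC peak at 98815544 to 98815627 was 359 bp from the DE peak at 98815987 to 98816049, and the one at 98837995 to 98838100 was 699 bp from the DE peak at 98838800 to 98838906. The latter DE peak sat on an annotated start of the gene, while its EpiSC neighbour was centred at -797.5 bp (negative positions are upstream of a start). The remaining DE peaks, 113 and 147 bp wide, were both inside the gene.

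Wnt8a, a canonical ligand of the early primitive streak, was the only member with more EpiSC peaks (3) than DE peaks (2) by name. This pattern was seen in 1.09% of coding genes. Whatever their names, 4 DE and 3 EpiSC peaks lay within 50 kb of Wnt8a. Having 3 EpiSC peaks was itself infrequent: Wnt11 and Wnt8a were the members that reached it, and 0.681% of coding genes did. At Wnt8a (chromosome 18, 34542327 to 34548061), the EpiSC peak at 34538282 to 34538402 (121 bp) overlapped a DE peak of 147 bp, and the one at 34541956 to 34542225 (270 bp, centred 236 bp from the gene) overlapped a DE peak of 104 bp. The second site was thus 0.385 times as wide in DE as in EpiSCs, the lowest ratio among the members' shared sites. The EpiSC peak on the other side, at 34551773 to 34552023 (3837 bp from the gene), had its nearest DE peak 9695 bp away.

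The R-spondin genes had 10 DE peaks in all and 1 EpiSC peak. Rspo3 (chromosome 10, 29453106 to 29535867) had 5 DE peaks of its own name, 183 to 322 bp wide, all outside the gene at its higher end, from 18692 to 59674 bp away. A further DE peak of 302 bp inside the gene (29457648 to 29457949) was named for Gm24286. The EpiSC peak (29595121 to 29595242) overlapped the DE peak at 29595047 to 29595236, and a DE peak of 307 bp followed 151 bp after that DE peak. The shared site was thus remote, 59274 bp from the gene in DE, with a DE-only peak beside it. Rspo2 had 4 DE peaks, 3 of them inside the gene, and its nearest EpiSC peak was 403833 bp away. Rspo1 had 1 DE peak of 256 bp.

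The remaining ligands had few peaks. Wnt6, whose gene lies next to Wnt10a, had a single site of its own name, 216 bp in DE and 183 bp in EpiSCs, inside the gene and centred 1390.5 bp downstream of its annotated start in DE. Another DE peak inside Wnt6 (74759944 to 74760112, 169 bp) was named for Gm27507. Wnt3a, a canonical ligand of the streak and tailbud, had DE peaks of 77 and 83 bp, 1 of them inside the gene, and its nearest EpiSC peak was 253291 bp away. Wnt4 and Wnt10a had 2 DE peaks each, and Wnt1, Wnt2, Wnt2b, Wnt5b, Wnt7a, Wnt7b, Wnt8b and Wnt10b had 1 each, from 64 bp wide at Wnt1 to 184 bp at Wnt10b. Of these ligands, Wnt6 was the one with an EpiSC peak.

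Among the receptors the LGR genes carried 25 of the 39 DE peaks. Lgr5, the receptor used as a marker of intestinal stem cells, had 9 DE and 2 EpiSC peaks, and 1.28% of coding genes had as many DE peaks. Of the 9, 8 lay inside the gene (chromosome 10, 115450314 to 115587780), and 7 of these 8 had no EpiSC counterpart. This is near the level of the whole DE list, where 11.7% of peaks overlapped an EpiSC peak. The shared site was 369 bp in DE (115474861 to 115475229) and 94 bp in EpiSCs (115475166 to 115475259), the highest width ratio among the members (3.93), and the EpiSC peak lay at its higher edge. The other EpiSC peak, 296 bp at 115469095 to 115469390, was 5470 bp from the nearest DE peak. Lgr4 and Lgr6 had 8 DE peaks each, a count that 1.75% of coding genes reached. In both genes 7 of the 8 lay inside the gene, and the 8 peaks spanned 78.6 kb at Lgr4 and 110.1 kb at Lgr6. Lgr4 had 1 EpiSC peak, at its promoter, and the EpiSC peak nearest to Lgr6 was 27130 bp away.

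The frizzled genes with peaks had fewer, from 2 to 3 DE peaks each. At Fzd2 (chromosome 11, 102604431 to 102608058) both states had the same pair of sites. The DE peaks were 92 bp (102603659 to 102603750) and 330 bp (102604165 to 102604494), and the EpiSC peaks 190 bp (102603585 to 102603774) and 250 bp (102604168 to 102604417). The pair was thus centred within 751 bp of the lower end of the gene in each state, with the relation of the widths inverted at the outer site. Fzd7, the main frizzled receptor of pluripotent cells, had a shared promoter peak and a DE-only peak of 552 bp at 59472549 to 59473100 on chromosome 1, 9322 bp from the gene, the widest DE peak of any member. Fzd1 had 3 DE peaks and 1 EpiSC peak, with no overlap: a DE peak of 175 bp lay 152 bp downstream of its start, and the others, 466 and 67 bp wide, were 153901 and 278472 bp away. The DE peak of Fzd6 at 39019578 to 39019773 was 537 bp from its EpiSC peak at 39018951 to 39019040 on chromosome 15.

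The co-receptor genes Lrp5 and Lrp6 had 1 EpiSC peak each. Lrp6 had 3 DE peaks inside the gene, and the one at 134515492 to 134515762 on chromosome 6 (271 bp) contained the EpiSC peak of 129 bp. At Lrp5 the states had different sites, a DE peak of 109 bp inside the gene and an EpiSC peak of 123 bp outside it, 1442 bp from its higher end.

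Of the 7 transducers, 3 had DE peaks only, a share near the 35.8% of all coding genes. Axin2, a feedback inhibitor that is itself a classical target of WNT signalling, had 6 DE peaks, from 69 to 294 bp wide, and its nearest EpiSC peak was 60863 bp away. Of the 6, 1 covered the annotated start (chromosome 11, 108920275 to 108920450), 1 lay 464 bp downstream of it, 3 lay upstream at -9222.5, -10407.5 and -21637.5 bp, and 1 lay beyond the gene. Tcf7 had 4 DE peaks, 1 over a start and 3 upstream at -10082, -22393.5 and -31158.5 bp, and its nearest EpiSC peak was 67698 bp away. Ctnnb1, the gene of β-catenin, had 1 DE peak of 159 bp, 6251 bp upstream.

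Axin1, Lef1, Tcf7l1 and Tcf7l2 had 1 EpiSC peak each by name, and all 4 overlapped a DE peak, as did 83.0% of the EpiSC peaks named for coding genes. The shared DE peaks were 336, 342, 344 and 367 bp wide, and their EpiSC counterparts 157, 267, 257 and 105 bp. The sites lay inside Axin1 (chromosome 17, 26138425 to 26138760), 25419 bp from Lef1 (chromosome 3, 131084707 to 131085048), inside Tcf7l1 (chromosome 6, 72677536 to 72677879) and over the start of Tcf7l2 (chromosome 19, 55741590 to 55741956). TCF7L1 is the factor of this family known mainly as a repressor in pluripotent cells, and its site lay 111338 bp downstream of its annotated start. Besides the shared site, Axin1 had 3 DE-only peaks, Lef1 and Tcf7l2 had 2 each and Tcf7l1 had 1.

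**Figure D3:**
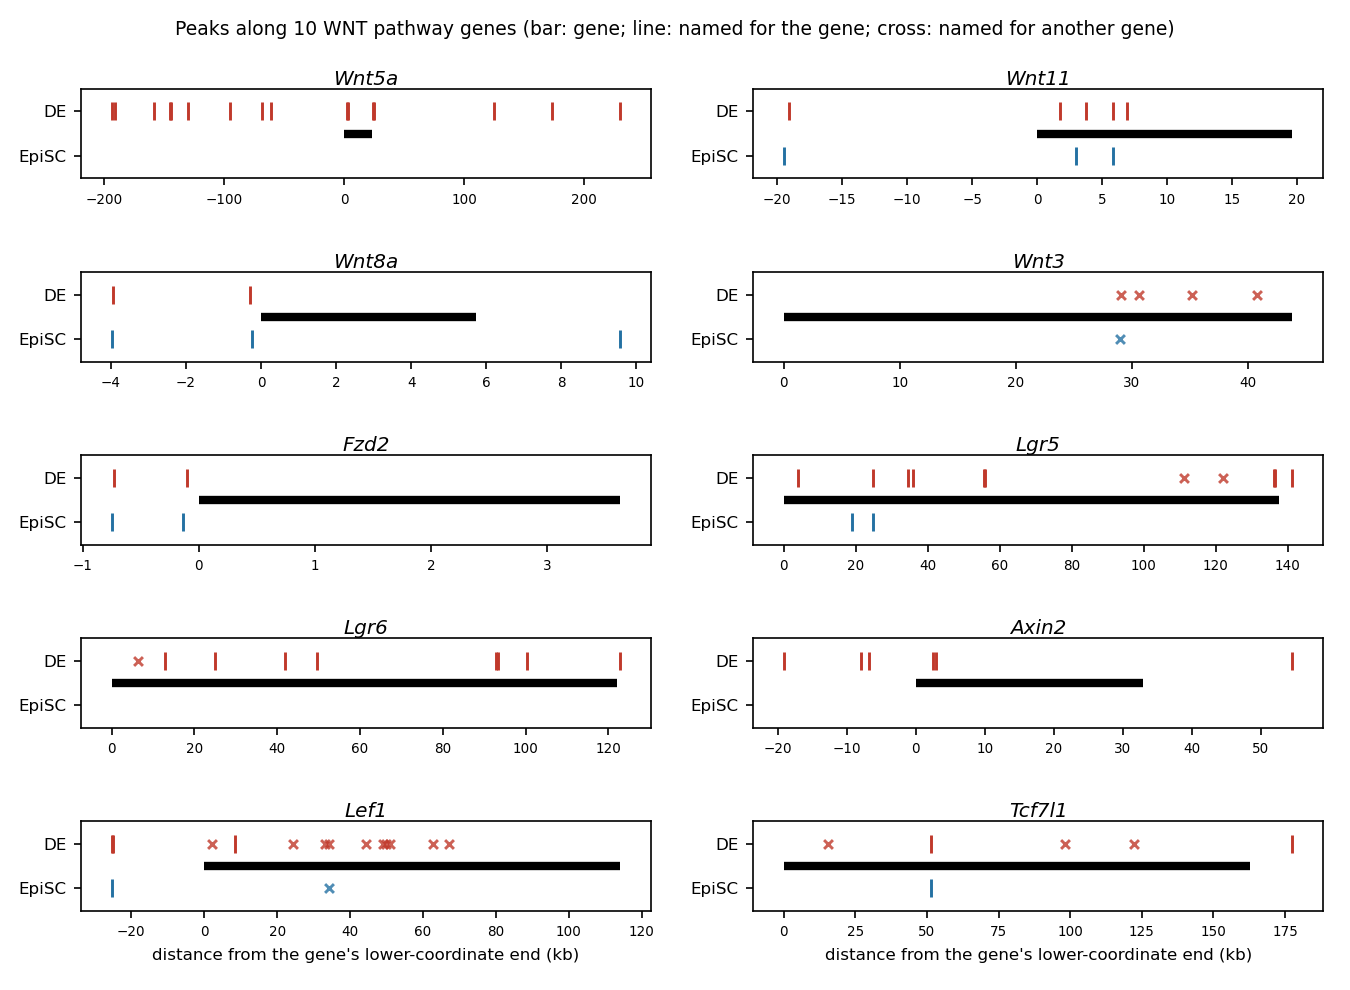
Positions of HA peaks along 10 of the genes (x axis, kb from the gene's lower-coordinate end; black bar, gene body) in DE (red, upper row) and EpiSCs (blue, lower row). Lines are peaks named for the gene in the authors' deposited table and crosses are peaks inside it named for another gene; 9 of the 10 additional DE peaks in Lef1 were named for Gm42449.

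The naming of peaks left out some that lay in or at member genes. Inside a member gene or within 1 kb of its annotated start, 30 DE peaks and 3 EpiSC peaks were named for another gene, and 14 of these DE peaks were at transducers. At Lef1, 10 DE peaks inside the gene were named for the predicted genes Gm43352 (1 peak) and Gm42449 (9 peaks), next to the single inside peak named for Lef1. The gene body of Lef1 thus held 11 DE peaks. An EpiSC peak of 85 bp inside the gene (131144428 to 131144512), also named for Gm42449, overlapped one of them, which gave Lef1 a second shared site. Wnt3, a ligand required to form the primitive streak, had no peak of its own name, but 4 DE peaks and 1 EpiSC peak inside it were named for the neighbouring gene Nsf. The EpiSC peak, 136 bp at 103803129 to 103803264 on chromosome 11, overlapped a DE peak of 219 bp. Fzd4 likewise had none by name, yet a DE peak of 221 bp and an EpiSC peak of 96 bp, both named for Tmem135, covered its promoter. At Tcf7l1 3 further DE peaks, up to 315 bp wide, lay inside the gene under other names. Lgr5 held 2 such DE peaks, and Lgr6, Wnt5b, Wnt7b and Tcf7l2 held 1 each.

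Of the 9 members with no peak of their own name, Wnt3, Wnt9a and Rspo4 held a DE peak inside the gene under another name, and Fzd4 and Fzd10 had one within 1 kb of the start. The nearest DE peak was 4051 bp away at Fzd3, 24542 bp at Wnt9b, 35331 bp at Fzd9 and 41077 bp at Wnt16. With the peaks of other names added, DE peaks per gene were 2.52 for ligands, 3.46 for receptors and 5.29 for transducers, in place of 2.09, 3 and 3.29. Of the 14 peaks added at transducers, 10 were in Lef1. No value over all coding genes was computed in this way.

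Promoters were examined for the 30 members whose annotated start is in the RefSeq promoter table (GRCm38.p6, the assembly of mm10), whatever gene the peak was named for. Axin1, Fzd2, Fzd3, Fzd6, Lgr5, Lrp5, Lrp6, Rspo2, Rspo3, Wnt10a, Wnt5a, Wnt7b and Wnt8a were not in that table. A DE peak was centred within 1 kb of a start in 12 of the 30, compared with 32.6% of 17492 coding genes. By class these were 6 of 7 receptors (Fzd1, Fzd10, Fzd4, Fzd7, Lgr4 and Lgr6), 4 of 6 transducers (Axin2, Lef1, Tcf7 and Tcf7l2) and 2 of 17 ligands (Wnt11 and Wnt5b). An EpiSC peak was so placed in 5 of the 30 (Fzd4, Fzd7, Lgr4, Tcf7l2 and Wnt11), compared with 11.6% of coding genes. In the first 4 of these the DE and EpiSC peaks overlapped, and at Wnt11 they did not. Most of the 17 ligands examined thus had no DE peak within 1 kb of a start. Ligands outside that table, among them Wnt5a and Wnt8a, were not examined.

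**Figure D4:**
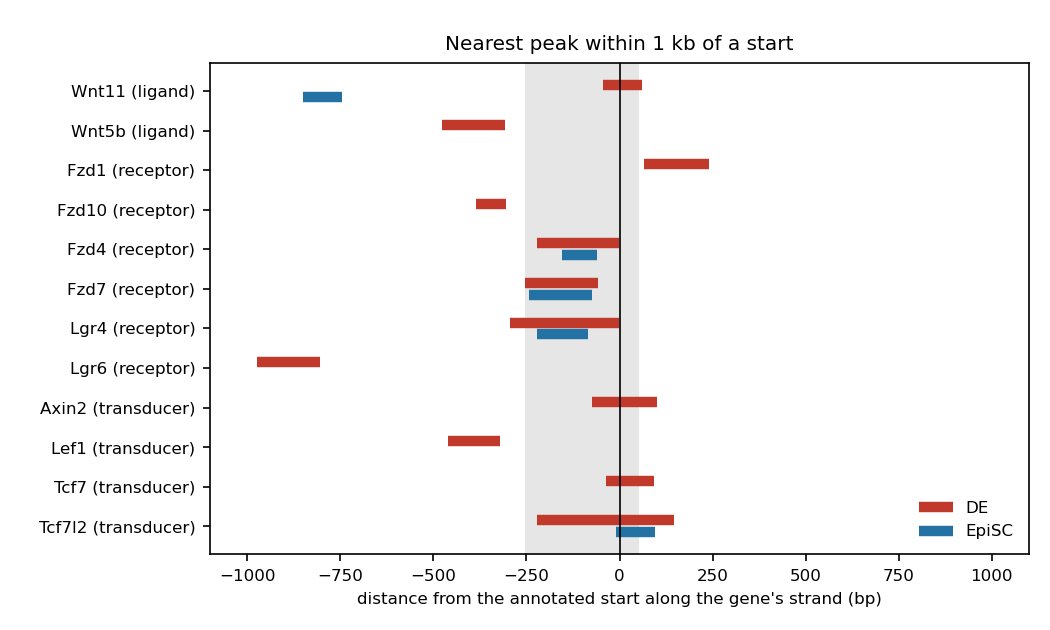
Extent of the HA peak nearest to an annotated start (x axis, bp along the gene's strand, 0 at the start) for the 12 members with a peak centred within 1 kb, in DE (red) and EpiSCs (blue); the grey band is the window from 250 bp before to 50 bp after the start. At Fzd4, Fzd7, Lgr4 and Tcf7l2 both peaks overlap inside or at the window, and at Wnt11 the EpiSC peak lies 699 bp from the DE peak.

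The promoter sequences under DE peaks that overlapped an EpiSC peak are printed first, because these are the promoters with a peak in both states. Each is the part of the RefSeq promoter window that the DE peak covered, 5′ to 3′ on the gene's plus strand: chr19:55741590-55741859 for Tcf7l2, chr2:109917397-109917646 for Lgr4, chr7:89404144-89404364 for Fzd4 and chr1:59481897-59482089 for Fzd7. Capitals mark any match to 4 motifs on either strand: the OTX2 core TAATCC, its first 5 letters TAATC (which every TAATCC also holds), the TCF/LEF core CTTTGAT and the octamer ATTTGCAT of POU factors such as OCT4. The short core and the octamer were added after the sequences had been seen.
Tcf7l2: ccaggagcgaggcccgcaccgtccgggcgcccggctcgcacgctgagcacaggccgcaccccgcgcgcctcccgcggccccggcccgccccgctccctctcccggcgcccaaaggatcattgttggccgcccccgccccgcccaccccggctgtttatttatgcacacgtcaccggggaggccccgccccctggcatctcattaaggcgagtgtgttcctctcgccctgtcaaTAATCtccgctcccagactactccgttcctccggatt
Lgr4: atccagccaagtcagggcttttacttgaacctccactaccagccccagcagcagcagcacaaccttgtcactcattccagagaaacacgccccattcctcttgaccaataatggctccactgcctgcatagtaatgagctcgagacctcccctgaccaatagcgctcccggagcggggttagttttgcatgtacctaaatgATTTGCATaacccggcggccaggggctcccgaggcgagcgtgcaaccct
Fzd4: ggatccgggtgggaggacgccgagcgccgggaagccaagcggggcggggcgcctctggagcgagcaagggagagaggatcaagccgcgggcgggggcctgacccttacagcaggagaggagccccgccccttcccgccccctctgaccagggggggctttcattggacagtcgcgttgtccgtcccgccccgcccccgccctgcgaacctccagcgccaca
Fzd7: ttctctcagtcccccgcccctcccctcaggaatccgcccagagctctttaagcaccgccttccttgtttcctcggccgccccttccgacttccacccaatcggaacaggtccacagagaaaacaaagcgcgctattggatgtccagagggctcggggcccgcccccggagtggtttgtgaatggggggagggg

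None of these 4 stretches held TAATCC or CTTTGAT. The stretch of Tcf7l2 held TAATC, its first base 13 bp downstream of the start, inside both peaks, and that of Lgr4 held the octamer 49 bp upstream of the start, inside the DE peak and outside the EpiSC peak. The EpiSC peak covered 60 of the 270 bases printed for Tcf7l2, 136 of 250 for Lgr4, 96 of 221 for Fzd4 and 168 of 193 for Fzd7. The stretches were rich in G and C, at 70.7% in Tcf7l2, 55.6% in Lgr4, 73.3% in Fzd4 and 62.7% in Fzd7.

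The promoters with DE-only peaks are shown for contrast: Axin2 and Tcf7 because they belong to genes with DE peaks only, and Wnt11, picked after its letters were seen, because its peak holds the OTX2 core. The stretches are chr11:108920275-108920398 for Axin2 and chr7:98838800-98838894 for Wnt11, both on the plus strand, and chr11:52282546-52282631 for Tcf7, on the minus strand.
Axin2: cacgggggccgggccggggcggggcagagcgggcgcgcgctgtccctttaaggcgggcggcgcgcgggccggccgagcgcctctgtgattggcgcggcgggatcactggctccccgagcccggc
Tcf7: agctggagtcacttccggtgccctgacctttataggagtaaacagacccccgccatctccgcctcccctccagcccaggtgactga
Wnt11: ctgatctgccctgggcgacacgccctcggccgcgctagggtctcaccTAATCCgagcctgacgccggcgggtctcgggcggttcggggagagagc

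The stretches of Axin2 and Tcf7 held none of the 4 motifs. In Wnt11 the OTX2 core began 2 bp downstream of the start, inside the DE peak, and another match 229 bp upstream of the start lay outside it. Of 21263 promoter windows of coding genes, 300 bp each, 6.42% held TAATCC on either strand, 3.22% CTTTGAT, 19.6% TAATC and 1.66% the octamer. TAATCC was present in 7.63% of the 5254 windows under a DE peak, 9.23% of the 1864 under an EpiSC peak and 6.03% of the 16009 under no DE peak. The short core TAATC was present in 17.6%, 19.8% and 20.2% of these windows, in the same order, so it was not more frequent under peaks. A match is a description of the letters, not of binding.

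Across all members, 15 EpiSC peaks out of 22 met a DE peak (68.2%, Wilson interval 47.3 to 83.6%), an interval that includes the 78.8% of the whole EpiSC list and the 83.0% of EpiSC peaks named for coding genes. Of the 110 DE peaks, 15 overlapped an EpiSC peak (13.6%, 8.44 to 21.3%), against 11.7% of the whole DE list and 13.6% of DE peaks named for coding genes. By class, 5 of 8 EpiSC peaks of ligands, 6 of 10 of receptors and 4 of 4 of transducers were shared (62.5%, 60% and 100%), and the Wilson intervals of the 3 shares overlapped (30.6 to 86.3%, 31.3 to 83.2% and 51.0 to 100%). The 15 shared sites were at 13 genes, leaving Fzd1, Fzd6 and Lrp5 with EpiSC and DE peaks that nowhere met. The EpiSC peak named for Fzd1 lay 260856 bp from that gene. How many other coding genes have peaks in both lists that nowhere meet was not counted.

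At a shared site the DE peak was usually the wider one. It was wider in 13 of 15 pairs, with a median of 294 bp in DE and 168 bp in EpiSCs, and in 10 pairs the EpiSC peak lay wholly within the DE peak. The exceptions were the Wnt8a site nearest the gene and the outer Fzd2 site. Over all 4980 shared EpiSC peaks, the DE peak was wider in 78.7% and contained the EpiSC peak in 61.8%, so the members did as the list did. Peak centres differed by a median of 35 bp at the members and by at most 167.5 bp, at Lgr5. DE-only peaks of the members had a median width of 147 bp, in ligands 131 bp, in receptors 173 bp and in transducers 144 bp, compared with 127 bp over all coding genes.

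**Figure D5:**
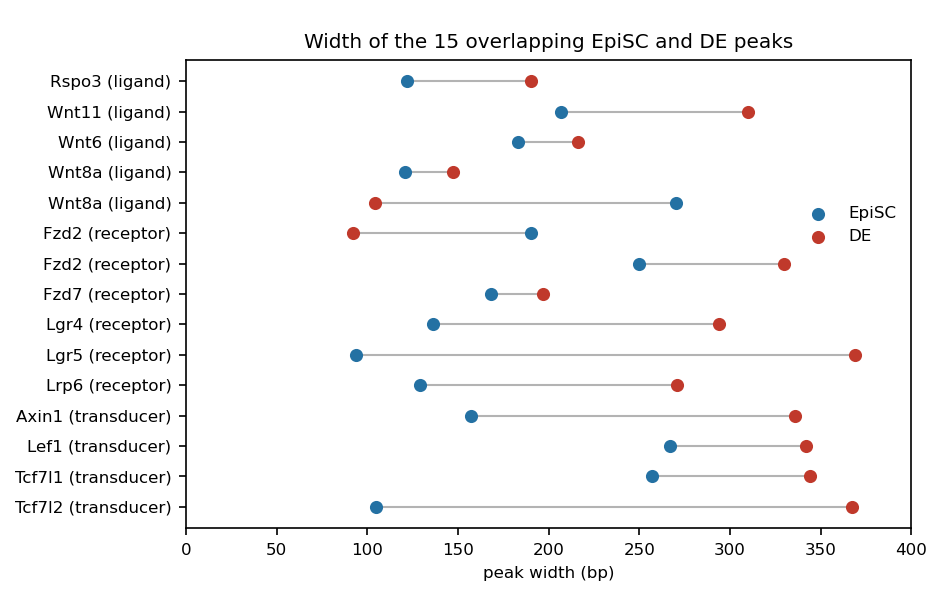
Width in bp (x axis) of the EpiSC peak (blue) and the overlapping DE peak (red) at the 15 shared sites, 1 line per site. The DE peak is the wider in 13, and 1 site each of Wnt8a and Fzd2 is wider in EpiSCs.

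To set lists of equal length side by side, the DE list was limited to its 6319 widest peaks (259 bp or more). Of these, 20 were named for 16 members, as many genes as in EpiSCs, and 13% of coding genes had such a peak. Both a wide DE peak and an EpiSC peak were named for 12 members (6.62% of coding genes). Axin2, Lgr6, Rspo2 and Wnt5a had a wide DE peak and no EpiSC peak (6.38% of coding genes), and Fzd6, Lrp5, Wnt6 and Wnt8a had an EpiSC peak and no wide DE peak (8.71%). Of the 20 wide peaks, 9 overlapped an EpiSC peak (45%, Wilson interval 25.8 to 65.8%), compared with 30.2% of the 6319 widest DE peaks, and 6 of the 15 shared DE peaks were below 259 bp.

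Position differed among the classes in DE. Of 39 receptor peaks, 30 lay inside the gene (76.9%), compared with 15 of 48 in ligands (31.3%), 9 of 23 in transducers (39.1%) and 51.0% over all coding genes. These shares go by the authors' names and leave out the 27 DE peaks inside members that were named for other genes, 14 of them in transducers, 10 in ligands and 3 in receptors. More than 50 kb from the gene lay 14 ligand peaks (29.2%), 12 of them at Wnt5a, compared with 2 receptor peaks and 1 transducer peak, and with 5.90% over all coding genes. The 22 peaks inside LGR genes made up most of the inside peaks of the receptors. These differences between classes were not tested.

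Other genes of the pathway, in a list of 34, were counted in the same way: 27 had a DE peak (50.4% of all coding genes did) and 13 an EpiSC peak (15.3% of all coding genes), and 16 of the 18 EpiSC peaks named for them were shared (78.8% of the whole list). Of 7 receptor turnover and co-receptor genes, 6 had a DE peak and 3 an EpiSC peak. Ryk, a WNT receptor kinase-like protein, had 8 DE peaks (1.75% of coding genes had as many) and no EpiSC peak. Znrf3, the ubiquitin ligase that R-spondins counteract, had 7 (2.49%) and none. Ror2, a WNT5A receptor, also had 7 DE peaks, and its 2 EpiSC peaks overlapped none of the DE list. Of 8 genes of the destruction complex and Dishevelled, 6 had a DE peak and 3 an EpiSC peak, with Gsk3b at 4 and 1. Of 10 genes known as early embryonic WNT targets, 8 had a DE peak and 3 an EpiSC peak, against the same 50.4% and 15.3% of all coding genes. Myc had 8 DE peaks (1.75% of coding genes) and 3 EpiSC peaks (0.681%), Sp5 had 4 and 2, and T, the streak factor Brachyury, had 3 DE peaks and no EpiSC peak. Dvl1, Dvl3, Kremen2, Pygo1, Pygo2, Cdx4 and Tbx6 had no peak of their own name in either list.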

How the data were processed

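Per the submitters' processing notes, the tools named were Bowtie2 2.3.5.1, SAMtools 1.14, Picard 2.26.10, bedtools 2.30 and MACS2 2.2.6, on mm10. Their settings, and how the nearest gene was found, are not given in the sources used here. The deposited HA lists give chromosome, start and end, merged over 50 bp per the file names, with both HA replicates of a state pooled per the labels. The authors' tables add the nearest gene to the same intervals (42711 of 42711 in DE and 6319 of 6319 in EpiSC); their columns of differential genes were not used. The DE list is also named by the labels of an EpiSC HA sample and a DE IgG sample, which was read as a slip.

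Members and lists were chosen with earlier results of these data known. The names in the authors' tables were in the gene table (RefSeq GRCm38.p6) for 79.9% of DE and 82.7% of EpiSC peaks. Peaks were shared when they overlapped by at least 1 bp. The member was also the nearest coding gene for 97 of 110 DE and 22 of 22 EpiSC peaks. Control lists came from 3 IgG samples and 1 untagged sample (565 intervals together); IgG in DE was not used here. Genes described peak by peak were those with the most EpiSC or DE peaks in each class; promoters were printed with shared and then wider peaks first. Interval code was tested on simulated data. Python 3.11.15, pandas 2.3.3 and SciPy 1.17.1 were used.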

Additional observations from a re-analysis of the deposited data

How the results depend on the processing

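No paired analysis was possible because each state has 1 list, made from both HA replicates together, and no HA replicate could be left out for the same reason. Over 12 alternatives 91 values were computed, of which 72 stayed within 1.5 times the reported value or, for shares, within its Wilson interval, and 19 are given here as moved. The 3 values per 100 kb of territory are among the 19 because their unit changes, whatever their size. None of the members' peaks met a control peak, so dropping such peaks tests nothing here.

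Counting all peaks within 50 kb of a member gave 212 DE and 36 EpiSC peaks, and 4.17, 6.38 and 6.86 DE peaks per gene for ligands, receptors and transducers. With the 6319 widest DE peaks, 20 DE peaks at 16 members remained, a ratio of 0.909 to the EpiSC peaks. The shares of overlapping peaks were then 40.9% of EpiSC and 45% of DE peaks, the median DE width was 323.5 bp, and the classes had 0.261, 0.692 and 0.714 peaks per gene. This choice selects on width. Without the LGR genes, receptors had 1.4 DE peaks per gene, below the ligands. Per 100 kb of territory the values were 2.02, 2.59 and 1.56, which puts transducers last. That order needs the LGR genes, since the Fzd genes had 1.18 and the Lrp genes 1.52. The ligand value also counts 9 Wnt5a peaks that lie inside Erc2. With peaks named for other genes, chosen after seeing the data, transducers had 5.29 per gene, and 10 of the 14 peaks added to them were in Lef1.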
